A study of Mus musculus with 2 samples.

Results

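Replication-dependent histone transcripts were followed across cycling and other cells of 2 single-cell libraries sorted from injured mouse muscle. All 67 gene symbols of the form Hist1h, Hist2h, Hist3h or Hist4h were taken from the 32286 features of the count tables, whatever their level. They comprised 6 linker histone H1 genes, 18 H2A, 18 H2B, 12 H3 and 13 H4 genes. Of the 67 genes, 64 had at least 1 UMI (a unique molecular identifier, which marks 1 captured RNA molecule) in a kept cell, 45 had at least 20, and 22 had fewer. Hist1h2bq, Hist1h2ba and Hist1h2aa had 0 UMIs in both libraries.

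Histones package DNA: H2A, H2B, H3 and H4 form the core of the nucleosome, and H1 binds the linker DNA between nucleosomes. Most are encoded by intronless genes in clusters that are transcribed together during S phase, when new DNA needs new histones. Their mRNAs are known for ending in a conserved stem-loop, bound by the stem-loop binding protein SLBP, in place of a poly(A) tail, and for being degraded when DNA synthesis stops. Some of the genes also make polyadenylated transcripts, including outside S phase. The libraries were made with a 3′ kit that primes on poly(A), so the counts cover only molecules that such a primer could capture, and a UMI counts 1 molecule whatever its length.

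Satellite cells, the stem cells of skeletal muscle, were sorted by flow cytometry from the biceps and recto femoris of Pax3GFP/+ mice at 5 days after injury. The GFP+ group was sorted as PAX3+, and the GFP- group as PAX3-. GFP reports the Pax3 locus, and both groups carried the reporter allele, although the genotype entry of both samples reads wild-type. Each group was 1 library, 20000 cells were loaded per library, and neither the number nor the age of the mice is given in the sources used here. With 1 library per group there is no test between groups: every interval below is a 95% exact interval that covers counting error only, and the sorted fraction cannot be told apart from its library.

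Cells were barcodes with at least 1000 UMIs, at least 500 detected genes and at most 10% mitochondrial UMIs, 604 of them in the GFP+ library and 2683 in the GFP- library, at median depths of 18534.5 and 14663 UMIs. They shared 2 barcodes. Cells with at least 1 UMI of Mki67, a protein of proliferating cells, were called Mki67-detected: 88 GFP+ cells (14.6%) and 521 GFP- cells (19.4%). These cells were deeper than the others, with medians of 29275 against 16624.5 UMIs in the GFP+ library and 21614 against 13694 UMIs in the GFP- library, so levels are given as CPM, UMIs per 1000000 UMIs of the same cells. All 10 listed myogenic markers were detected in both libraries, at summed levels of 2436 CPM in GFP+ and 2264 CPM in GFP- Mki67-detected cells. The 11 macrophage markers were all detected too, and summed to 3812 CPM in GFP+ against 223 CPM in GFP- Mki67-detected cells. The 8 mural markers (Myh11 and Kcnj8 at 0 in GFP+ cells) summed to 1571 CPM against 2005 CPM. They do not mark mural cells alone here. In cells without Mki67 and with at least 10 UMIs of Myog, a factor of muscle differentiation, they summed to 3920 CPM in GFP+ and 3982 CPM in GFP- cells. The 5 fibroadipogenic markers, all detected, summed to 1216 CPM in GFP+ and 536 CPM in GFP- Mki67-detected cells. These do not mark fibroadipogenic cells alone here either. In cells with Pax7, the satellite cell factor, without Mki67 and with under 10 UMIs of Myog and of the macrophage gene Lyz2, they were also high. There they summed to 996 CPM in GFP+ (Pdgfra at 0) and 876 CPM in GFP- cells (Lum at 0). Of the 5 endothelial markers Pecam1, Cdh5 and Emcn were at 0 in the GFP+ cells and none was in the GFP- cells, at sums of 1.39 CPM in GFP+ and 23.1 CPM in GFP- Mki67-detected cells.

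The 67 genes lie on 4 chromosomes of GRCm38: 54 between chr13:21715763-23934851, 10 on chromosome 3, 2 on chromosome 11 and 1 on chromosome 6. GENCODE M21, an annotation of the same build, matched all 67, and 62 of their transcripts have a single exon. The stem-loop was searched for on the transcribed strand by its conserved stem and loop letters, and the forms that matched are given below. It was found in 44 of the 67 genes, against 62 of all 21901 protein-coding genes (0.283%). Of the 52 members annotated with at least 30 bases of 3′ UTR, 44 held it; for the others a missing match says only that these letters are not in the annotated transcript. The stem-loop windows of the members that carry most of the UMIs, or the extremes of the comparisons below, are shown 5′ to 3′ as RNA-sense DNA letters from the GENCODE transcripts, with the stem-loop in capitals.

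Hist1h2ap (chr13:21833026-21833055, minus strand): aaaaaaaaaaaGGCTCTTTTCAGAGCCatc
Hist1h2ae (chr13:23570665-23570694, minus strand): aaaaaaacaaaGGCTCTTTTCAGAGCCatt
Hist1h2ab (chr13:23751561-23751590, plus strand): accaaaacaaaGGCTCTTTTCAGAGCCacc
Hist1h1e (chr13:23621779-23621808, minus strand): aacaacccaaaGGCTCTTTTCAGAGCCacc
Hist1h1c (chr13:23739501-23739530, plus strand): acaatccaaaaGGCTCTTTTCAGAGCCacc
Hist3h2a (chr11:58955161-58955190, plus strand): cagacaccaaaGGCTCTTTTCAGAGCCacc
Hist2h2ac (chr3:96220415-96220444, minus strand): gaatccaaaaaGGCTCTTTTTAGAGCCacc
Hist1h4d (chr13:23581939-23581968, plus strand): caaaaaccaaaGGCCCTTTTCAGGGCCact
Hist1h4c (chr13:23698086-23698115, minus strand): tgtcaacaaaaGGCCCTTTTCAGGGCCacc
Hist1h4i (chr13:22040963-22040992, minus strand): tgctacttaaaGGCCCTTTTTAGGGCCacc

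The form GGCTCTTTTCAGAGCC was shared by 25 members, of all types but H4. The form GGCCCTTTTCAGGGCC was found in 7 members, all of them H4 genes. Hist1h2ap holds a run of 12 A and was 1 of 4 members with at least 10 A in a row, beside Hist1h2ao, Hist1h2be and Hist1h2ac. The annotated transcript goes on for 3 bases after the stem-loop in Hist1h2ap and for 11 in Hist1h2ab, but for 840 bases in Hist1h1c and 1643 bases in Hist3h2a. No match was found in the annotated transcripts of Hist1h1b and Hist1h2bc.

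RefSeq promoter windows (GRCm38.p6, 250 bases before to 50 after the start) were matched for 61 of the 67 members. CCAAT, on either strand, was in 52 of the 61 windows (85.2%, against 37.9% of all 27025 promoter windows), among them every window of an H1, H2A, H2B or H3 gene and 3 of the 12 windows of H4 genes. TATAAA was in 34 (55.7%, against 14.2%), ATTTGCAT, the octamer of H2B promoters, in 13 (21.3%, against 1.75%), and AAACACAA, the H1 box, in 6 (9.84%, against 1.95%). The octamer was found in 7 H2A and 6 H2B windows, and the H1 box in 4 of 5 H1 windows. Windows of neighbouring genes can overlap, so 1 site can count for 2 members. The H2A gene Hist1h2ah and the H2B gene Hist1h2bk, on opposite strands, share an octamer in this way. The 150 bases before the start are shown for 3 H1 genes whose levels behave unlike one another below, with these motifs on either strand in capitals; no 2 matches overlap in them.

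Hist1h1b (chr13:21780626-21780775, minus strand): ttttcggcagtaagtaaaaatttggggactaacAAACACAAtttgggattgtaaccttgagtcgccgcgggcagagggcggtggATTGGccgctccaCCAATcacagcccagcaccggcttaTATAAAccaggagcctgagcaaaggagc
Hist1h1e (chr13:23622559-23622708, minus strand): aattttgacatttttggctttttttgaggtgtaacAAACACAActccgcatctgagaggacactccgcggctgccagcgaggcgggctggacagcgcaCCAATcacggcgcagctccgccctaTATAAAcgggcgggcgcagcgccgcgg
Hist1h1c (chr13:23738657-23738806, plus strand): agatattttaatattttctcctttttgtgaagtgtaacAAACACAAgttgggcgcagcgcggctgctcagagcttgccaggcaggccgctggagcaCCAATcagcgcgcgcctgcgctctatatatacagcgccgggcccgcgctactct

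All 3 hold an H1 box and CCAAT, and Hist1h1b and Hist1h1e hold TATAAA as well. A match is a description of the letters and not a mapped binding site.

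The members were few in reads and unequal. They gave 22251 UMIs in all kept cells, 6578 in the GFP+ library (549 CPM) and 15673 in the GFP- library (354 CPM). The 6 members with over 1000 UMIs, Hist1h2ap, Hist1h1b, Hist1h2bc, Hist1h2ae, Hist1h1c and Hist1h1e, held 74.3% of them and the first 12 held 87.4%. The leading member differed by library: Hist1h2ap, an H2A gene, held 25.9% of the GFP+ histone UMIs, against 14.2% in the GFP- library, and Hist1h1b, a linker histone gene, held 8.21% of the GFP+ and 18.3% of the GFP- histone UMIs.

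In Mki67-detected cells histone transcripts were far higher than in the other cells of the same library, in both libraries. Summed over the members, the level was 1794 CPM in Mki67-detected against 156 CPM in other GFP+ cells (5156 and 1422 UMIs), a ratio of 11.5 (10.8 to 12.2). In the GFP- library it was 910 CPM against 129 CPM (11597 and 4076 UMIs), a ratio of 7.04 (6.79 to 7.30). Mki67-detected cells thus held 78.4% of the GFP+ and 74.0% of the GFP- histone UMIs. Per cell without scaling for depth the ratios were 21.3 and 11.8, and with at least 3 Mki67 UMIs against 0 they were 17.8 and 8.81.

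A member was called here at a ratio of at least 2 in either direction with at least 20 UMIs over both groups of cells. In the GFP+ library 28 of 30 members with enough UMIs were higher in Mki67-detected cells and 0 were lower, where 6.21% of all features with enough UMIs were called higher and 6.56% lower. In the GFP- library 35 of 40 were higher, against 5.71% of features, and 1 was lower, against 7.12%. The median ratio of these members was 15.3 in GFP+ and 10.1 in GFP- cells, and that of all features 0.977 and 0.978. Of the 29 members with enough UMIs in both libraries 26 were called higher in both, Hist1h1c in the GFP+ library alone, and Hist1h2bc and Hist3h2a in neither. At least 100 UMIs per member left 8 and 14 members called higher, and at least 5 UMIs gave 51 in the GFP+ library. These limits change how many members have enough UMIs, and the share of all features called at them is not given here.

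Among the linker histones, Hist1h1b had 182 CPM in Mki67-detected against 1.76 CPM in other GFP+ cells, a ratio of 104 (63.3 to 183). In the GFP- library it had 213 CPM against 5.17 CPM, a ratio of 41.2 (35.1 to 48.5). Hist1h1a gave ratios of 40.1 (12.7 to 203) and 48.4 (27.2 to 95.1), the first from 38 against 3 UMIs. Both genes had few UMIs outside Mki67-detected cells, while 2 other linker histones had a level of their own outside them. Hist1h1e had 96.7 CPM against 17.7 CPM in GFP+ cells and 72.9 CPM against 11 CPM in GFP- cells, ratios of 5.47 (4.49 to 6.69) and 6.64 (5.86 to 7.54). Hist1h1c had 77.6 CPM against 30.9 CPM in GFP+ cells and 58.4 CPM against 30.5 CPM in GFP- cells, ratios of 2.52 (2.10 to 3.01) and 1.91 (1.74 to 2.11). Hist1h1d lay between them, at 22.8 (12.1 to 47.4) and 13.9 (9.75 to 20.5), and Hist1h1t, known from the testis, had 2 UMIs in each library.

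The H2A genes covered a wide range. Hist1h2ap had 572 CPM in Mki67-detected against 6.59 CPM in other GFP+ cells and 168 CPM against 2.89 CPM in GFP- cells, ratios of 86.9 (67.2 to 114) and 58.1 (47.1 to 72.4). Hist1h2ae had 905 against 60 UMIs in GFP+ cells (315 CPM against 6.59 CPM) and 1274 against 128 UMIs in GFP- cells, ratios of 47.8 (36.8 to 63.2) and 24.6 (20.5 to 29.8). Both were the main H2A transcripts of cycling cells, and Hist1h2ab, Hist1h2af and Hist2h2ac followed them at lower levels. Hist1h2ab had ratios of 80.8 (21.3 to 685) and 26.3 (14.2 to 54.2), and Hist2h2ac of 26.1 (12.5 to 63.1) and 9.89 (6.99 to 14.3). Hist1h2af had 36 against 0 UMIs in GFP+ cells, at least 38-fold higher with a floor of 3 counts over the group, and 54 against 3 UMIs in GFP- cells, a ratio of 44.5 (14.4 to 223). Hist3h2a, of the small cluster on chromosome 11, stood apart: 6.61 CPM against 5.82 CPM in GFP+ cells and 9.10 CPM against 7.93 CPM in GFP- cells, ratios of 1.14 (0.635 to 1.95) and 1.15 (0.913 to 1.44).

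Of the H2B genes, 7 of 8 with enough UMIs were higher in Mki67-detected GFP+ cells and 8 of 10 in GFP- cells. The exceptions were Hist1h2bc in both libraries and Hist2h2be, at 1.31 (0.514 to 3.11), in the GFP- library. Hist1h2bc was also the most abundant member outside Mki67-detected cells: 70.0 CPM in Mki67-detected against 46.2 CPM in other GFP+ cells and 72.4 CPM against 42.6 CPM in GFP- cells, ratios of 1.51 (1.27 to 1.79) and 1.70 (1.56 to 1.85). At the other end, the highest ratio of an H2B gene with enough UMIs was 72.9 in GFP+ cells, for Hist1h2bb (48 UMIs in all kept GFP+ cells). In GFP- cells it was that of Hist2h2bb, at 45.8 (11.8 to 392) from 37 against 2 UMIs. Hist2h2bb had 30 against 3 UMIs in GFP+ cells, a ratio of 31.7 (9.86 to 162).

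All 5 H3 and all 5 H4 genes with enough UMIs were higher in Mki67-detected GFP+ cells, and so were 8 of 9 H3 and 6 of 6 H4 genes in the GFP- library. Hist1h3c, the most abundant H3 member, had ratios of 42.3 (18.6 to 119) and 24.1 (14.4 to 43.2). The 1 member called lower was the H3 gene Hist2h3c1, with 2 UMIs in Mki67-detected and 18 in other GFP- cells, a ratio of 0.275 whose interval of 0.0309 to 1.15 included 1. The 2 leading H4 genes had lower ratios than Hist1h2ap and Hist1h2ae: Hist1h4i gave 5.72 (4.14 to 7.95) in GFP+ and 5.48 (4.69 to 6.41) in GFP- cells, and Hist1h4d gave 9.02 (6.94 to 11.8) and 5.72 (4.53 to 7.25).

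**Figure D1:**
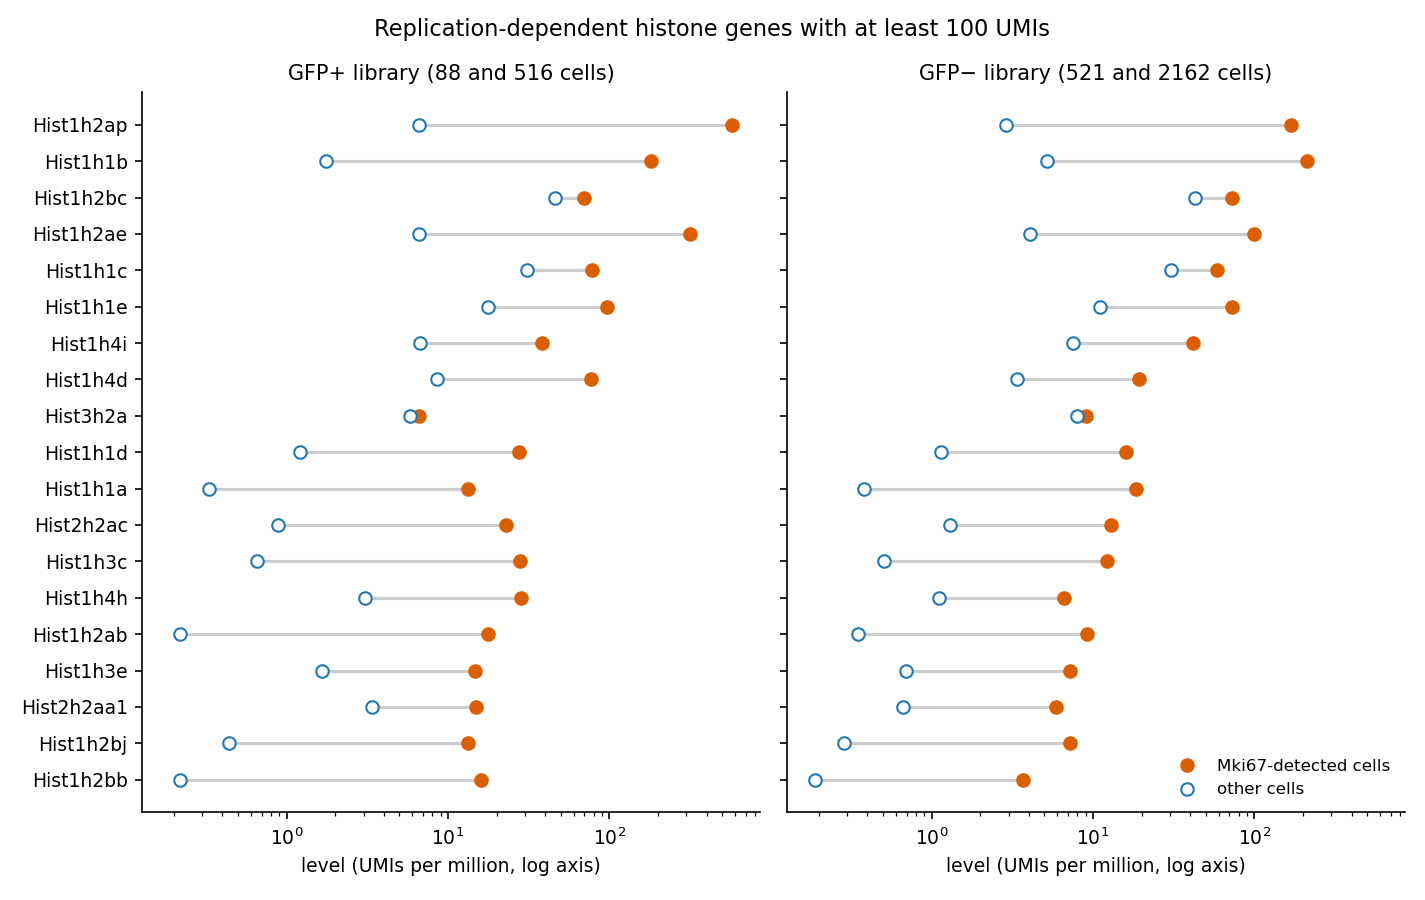
Level of each member with at least 100 UMIs over both libraries, in CPM on a log axis, in Mki67-detected cells (filled) and other cells (open) of the GFP+ library (left) and the GFP- library (right), ordered by UMIs. In both libraries the 2 points lie far apart for Hist1h2ap and Hist1h1b, close together for Hist1h2bc, and nearly on top of each other for Hist3h2a.

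Whether cells held any histone UMI was compared after thinning each cell to 5000 UMIs. At that depth 78.6% (68.3% to 86.8%) of 84 Mki67-detected and 46.5% (41.8% to 51.2%) of 454 other GFP+ cells held one, as did 75.4% (71.4% to 79.1%) of 508 Mki67-detected and 38.1% (35.9% to 40.3%) of 1985 other GFP- cells. Thinning left out 4, 62, 13 and 177 shallower cells of these groups, and without it the shares were 92.0%, 68.0%, 91.4% and 63.6%. Single genes differed in how far they separated the cells. Hist1h1b was seen in 21 of the 84 Mki67-detected and 4 of the 454 other GFP+ cells (0.881%), and in 33.9% of Mki67-detected and 1.51% of other GFP- cells. For Hist1h2bc the shares lay closer together, at 22.6% against 14.3% in GFP+ cells and 24.0% against 15.3% in GFP- cells. Empty droplets (barcodes with 1 to 100 UMIs), a gauge of free RNA, held 377 CPM (346 to 411) of histone transcripts in the GFP+ library and 285 CPM (267 to 304) in the GFP- library, which is above the other cells and below the Mki67-detected cells of both libraries. The part of free RNA in the low levels of the other cells was not tested. As a measure of how much of it reached cells, Lyz2, a macrophage gene, was at 2196 CPM in GFP+ and 513 CPM in GFP- empty droplets, and at 7.56 CPM and 3.21 CPM in the cells that were selected to hold fewer than 10 Lyz2 UMIs.

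Genes around the histone pathway were set beside the members. Of 36 listed S phase genes 33 were called higher in Mki67-detected cells of each library, at median ratios of 5.89 in GFP+ and 4.52 in GFP- cells. Of 30 G2 and M phase genes, all 30 were, at medians of 50.3 and 40.9. Of the 14 genes of histone mRNA synthesis and 3′ end processing with enough UMIs 3 were higher in GFP+ cells (Slbp, Lsm11 of the U7 particle and Eri1, a 3′ exonuclease that trims histone mRNA ends) and 2 in GFP- cells (Slbp and Eri1). Slbp itself had 83.9 CPM against 34.7 CPM in GFP+ cells and 85.9 CPM against 34.5 CPM in GFP- cells, ratios of 2.42 (2.04 to 2.87) and 2.49 (2.29 to 2.71).

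Of 19 histone chaperone and deposition genes 7 were called higher in each library: Asf1b, Chaf1a, Chaf1b, Hjurp, Nasp, Hat1 and Ssrp1. The highest was Asf1b, a chaperone that hands H3 and H4 to the CAF-1 complex, at 51.6 (24.3 to 131) in GFP+ and 17.6 (13.7 to 22.8) in GFP- cells. Of the 11 replacement and variant histone genes with enough UMIs 6 were higher in GFP+ and 5 in GFP- Mki67-detected cells. H2afz, the variant H2A.Z, was at 4.18 (4.02 to 4.35) and 4.84 (4.74 to 4.93). Cenpa, the centromeric H3 variant, was at 10.7 (8.98 to 12.9) and 15.7 (14.4 to 17.1). H3f3a, which makes the replication-independent H3.3, was at 1.07 (1.04 to 1.10) and 1.03 (1.01 to 1.04), with levels of 1882 CPM against 1760 CPM in GFP+ cells and 2162 CPM against 2103 CPM in GFP- cells. In Mki67-detected cells this 1 gene gave 5407 UMIs in the GFP+ and 27550 UMIs in the GFP- library, where the 67 members together gave 5156 and 11597.

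Within the Mki67-detected cells the members were not evenly spread. The cells of each library were ranked by the share of their UMIs in the S phase list, which holds no member, and divided into 4 equal groups of 22 GFP+ cells or 130 to 131 GFP- cells. From the lowest to the highest group the summed histone level was 305, 314, 2288 and 3204 CPM in the GFP+ library and 251, 372, 1047 and 1649 CPM in the GFP- library. Hist1h1b ran at 8.30, 12.1, 214 and 368 CPM in GFP+ cells and at 5.64, 31.6, 236 and 481 CPM in GFP- cells. Hist1h2ap ran at 8.30, 12.1, 748 and 1116 CPM in GFP+ cells and at 3.76, 23.6, 212 and 348 CPM in GFP- cells. Both transcripts thus had their high levels in the upper 2 groups of both libraries.

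Hist1h1c and Hist1h2bc did not follow this order. Hist1h1c was at 133, 63.4, 79.3 and 57.5 CPM in GFP+ cells and at 58.3, 61.3, 51.1 and 64.7 CPM in GFP- cells. Hist1h2bc was at 91.3, 112, 33.4 and 60.8 CPM in GFP+ cells and was highest in the lowest group of GFP- cells, at 107, 102, 61.0 and 37.5 CPM. Ranked by the G2 and M phase list instead, the summed level was 149, 694, 2720 and 2611 CPM in GFP+ cells and 186, 762, 1398 and 1067 CPM in GFP- cells, highest in the third group of both libraries.

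**Figure D2:**
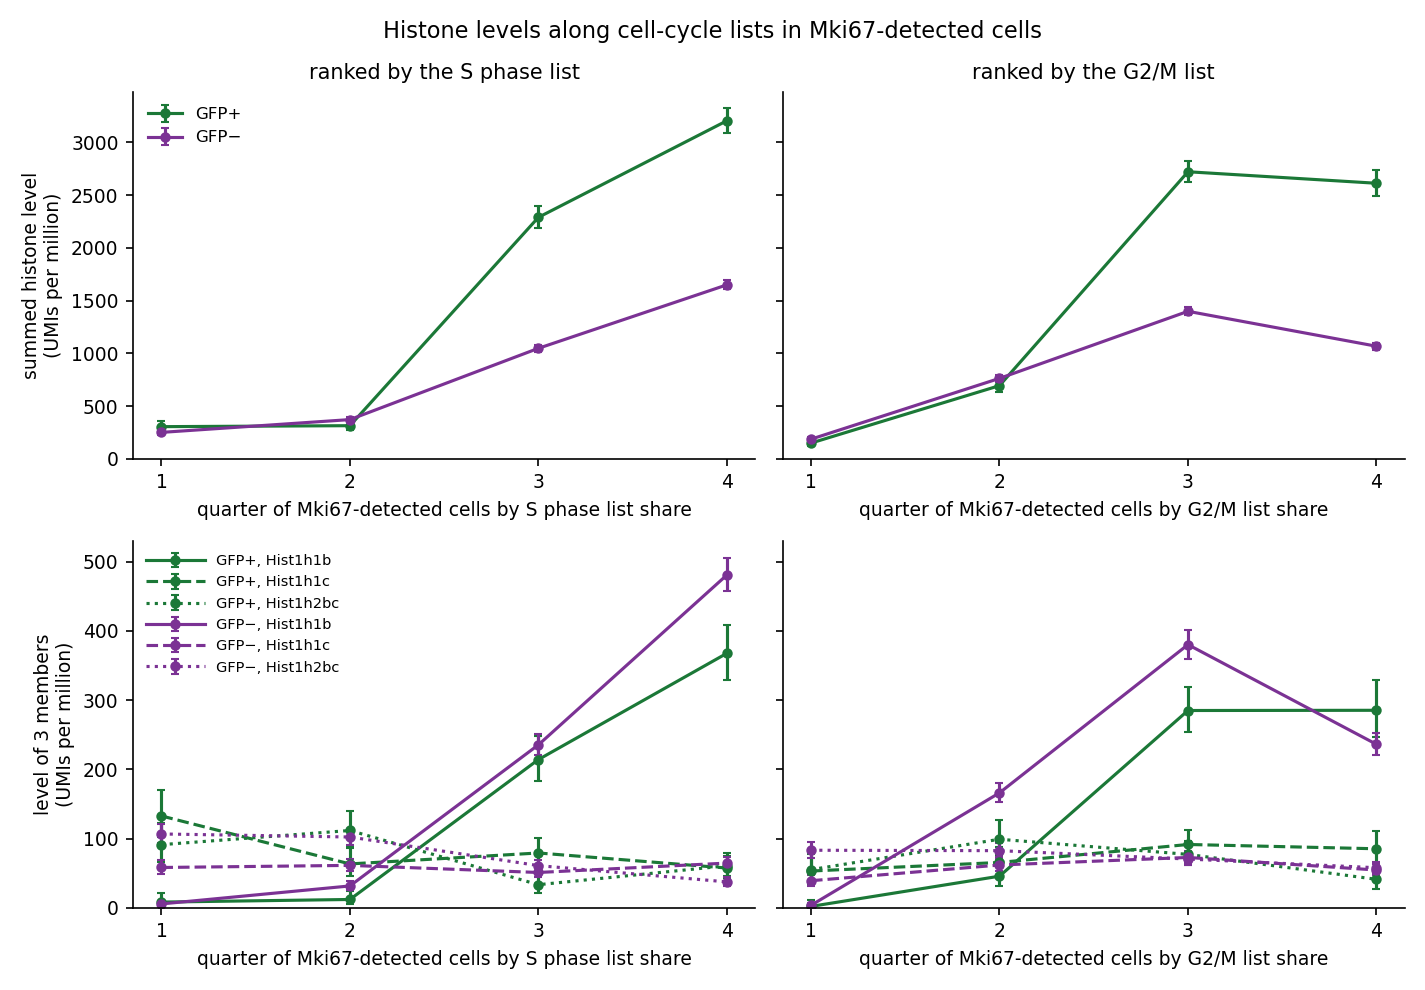
Histone level (CPM, bars are exact Poisson intervals) in 4 equal groups of Mki67-detected cells ranked by the share of UMIs in the S phase list (left) or the G2/M list (right), low to high, for the GFP+ and GFP- libraries. The summed level (top) climbs to 3204 in GFP+ and 1649 in GFP- cells with the S phase share, while Hist1h1c and Hist1h2bc (bottom) stay at or below 133 in every group and Hist1h1b reaches 368 in GFP+ and 481 in GFP- cells of the top S phase group.

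Across the 521 Mki67-detected GFP- cells the genes whose level followed the summed histone level most closely, of 9470 compared, were Pclaf (Pearson r = 0.625), Esco2 (0.621), Top2a (0.584), Pbk (0.538), Stmn1 (0.525), Rrm2 (0.521), Fbxo5 (0.518), Cdk1 (0.518), Atad2 (0.517) and Tk1 (0.514). The same genes had r between 0.512 (Rrm2) and 0.656 (Top2a) across the 88 GFP+ cells. These are descriptions over cells of 1 library each, which share its depth and free RNA. Pclaf binds the replication clamp PCNA, Esco2 acetylates cohesin in S phase, and Rrm2 and Tk1 supply DNA precursors. Top2a untangles DNA, and Cdk1 and Pbk are kinases of mitosis.

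Between the sorted fractions the summed level was higher in GFP+ cells, and the members differed in this. Over all kept cells it was 549 CPM in GFP+ against 354 CPM in GFP- cells, a ratio of 1.55 (1.51 to 1.60). In Mki67-detected cells the ratio was 1.97 (1.91 to 2.04) and in the other cells 1.21 (1.14 to 1.28). Over all cells 20 of 45 members with enough UMIs were at least 2-fold higher in GFP+ cells, where 7.28% of all features were, and 0 were at least 2-fold lower, where 4.25% were. The members' median ratio was 1.85, and that of all features 0.935. At least 100 UMIs per member left 6 of 19 called higher, and a fold of at least 3 left 11 of 45. The share of all features called at these alternatives is not given here.

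In Mki67-detected cells 22 of 41 members were called higher in GFP+ cells (6.04% of features) and 0 lower (4.91%). In the other cells 6 of 21 were called higher (6.63%) and 1 lower (4.48%). The lower member was Hist1h1b, with 16 GFP+ and 163 GFP- UMIs and a ratio of 0.340 (0.190 to 0.569). By type, the Mki67-detected cells had 398 CPM in GFP+ and 379 CPM in GFP- cells for H1, a ratio of 1.05 (0.985 to 1.12), but 986 CPM and 319 CPM for H2A, a ratio of 3.09 (2.95 to 3.25). H2B had 158 CPM and 103 CPM (1.53, 1.37 to 1.70), H3 75.5 CPM and 35.5 CPM (2.12, 1.80 to 2.50) and H4 177 CPM and 73.9 CPM (2.39, 2.14 to 2.67). The core histones, and H2A above all, therefore made up the difference in sums.

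**Figure D3:**
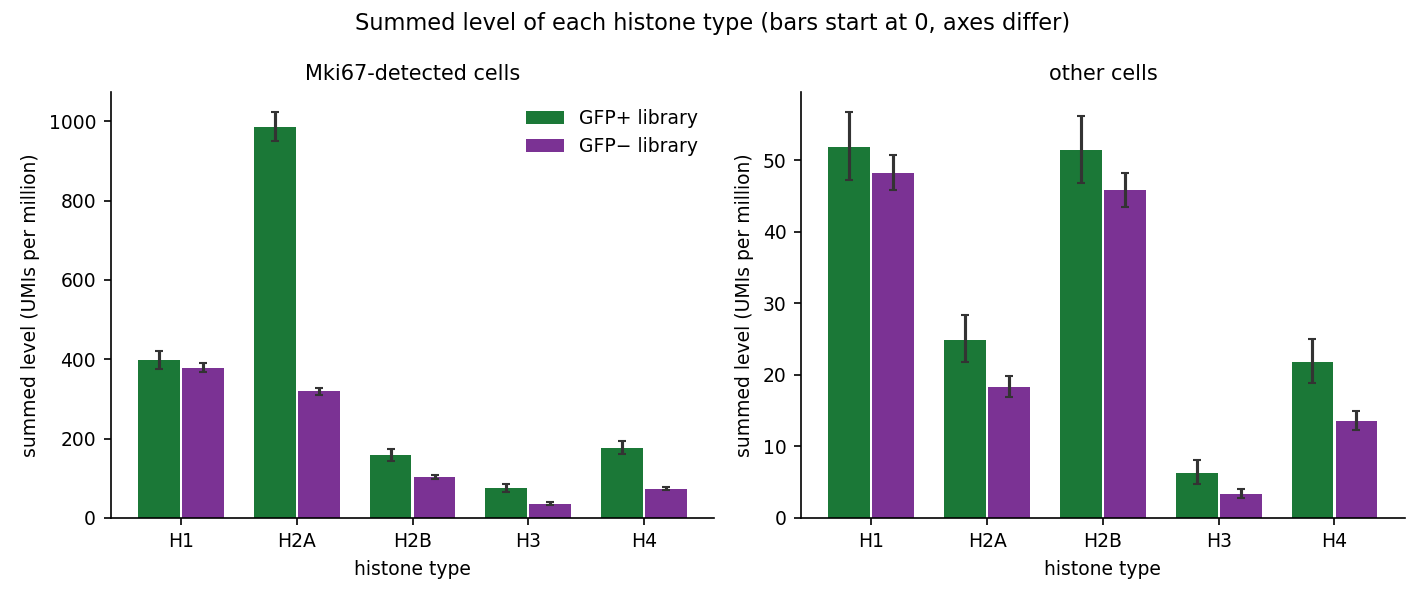
Summed level of each histone type (CPM, bars start at 0, error bars are exact Poisson intervals) in Mki67-detected cells (left) and other cells (right) of the GFP+ and GFP- libraries. H2A stands at 986 in GFP+ against 319 in GFP- Mki67-detected cells, while H1 stands at 398 against 379.

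The single members made this split plain. Among Mki67-detected cells the GFP+ over GFP- ratio was 3.42 (3.20 to 3.64) for Hist1h2ap, 3.15 (2.89 to 3.43) for Hist1h2ae and 4.02 (3.34 to 4.84) for Hist1h4d. Hist1h1b had a ratio of 0.857 (0.779 to 0.941) there, Hist1h1a 0.717 (0.495 to 1.01), Hist1h4i 0.926 (0.747 to 1.14) and Hist1h2bc 0.966 (0.825 to 1.13). Hist1h1c and Hist1h1e were both at 1.33, with intervals of 1.14 to 1.55 and 1.16 to 1.52. Genes of 1 type thus differed in size: of the H4 genes, Hist1h4d was higher in GFP+ cells, and the interval of Hist1h4i included 1. Over all kept cells, 1 GFP+ cell held 66 of the 300 Hist1h4d UMIs, and the highest GFP- cell 6 of 351. For Hist1h2ap the highest cell held 166 of 1705 GFP+ and 59 of 2227 GFP- UMIs. The intervals do not cover such clustering of UMIs in single cells. Without Hist1h2ap the summed ratio in Mki67-detected cells was 1.65, against 1.97 with it.

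Over all kept cells the 4 highest ratios were those of Hist1h2bn (26 GFP+ and 18 GFP- UMIs, 5.34, 2.82 to 10.3), Hist1h4c (42 and 32 UMIs, with 12 of the 42 in 1 cell, 4.85, 2.99 to 7.94), Hist1h2br (35 and 27 UMIs, 4.79, 2.82 to 8.23) and Hist1h2an (10 and 10 UMIs, 3.69, 1.38 to 9.89). The 4 lowest were those of Hist1h1a (41 and 247 UMIs, 0.613, 0.429 to 0.856), Hist1h1b (540 and 2875 UMIs, 0.694, 0.632 to 0.761), Hist3h2a (72 and 366 UMIs, 0.727, 0.556 to 0.938) and Hist1h2bh (8 and 36 UMIs, 0.821, 0.330 to 1.80). In all, 27 of the 45 members with enough UMIs had an interval above 1 and 4 an interval below 1. The share of all features with such intervals is not given here, so these counts have no background. In the lists around the pathway the counts were small, as they were over all features (7.28% higher and 4.25% lower): 0 of 11 variant histone, 0 of 14 histone mRNA processing and 0 of 19 chaperone genes with enough UMIs were called higher in GFP+ cells, 1 of 36 S phase genes was (Ccne2, cyclin E2, 2.26, 1.85 to 2.75) and 0 of 30 G2 and M phase genes were. None of these genes was called lower except Cenpe, a kinesin of the kinetochore in the G2 and M phase list, at 0.437.

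**Figure D4:**
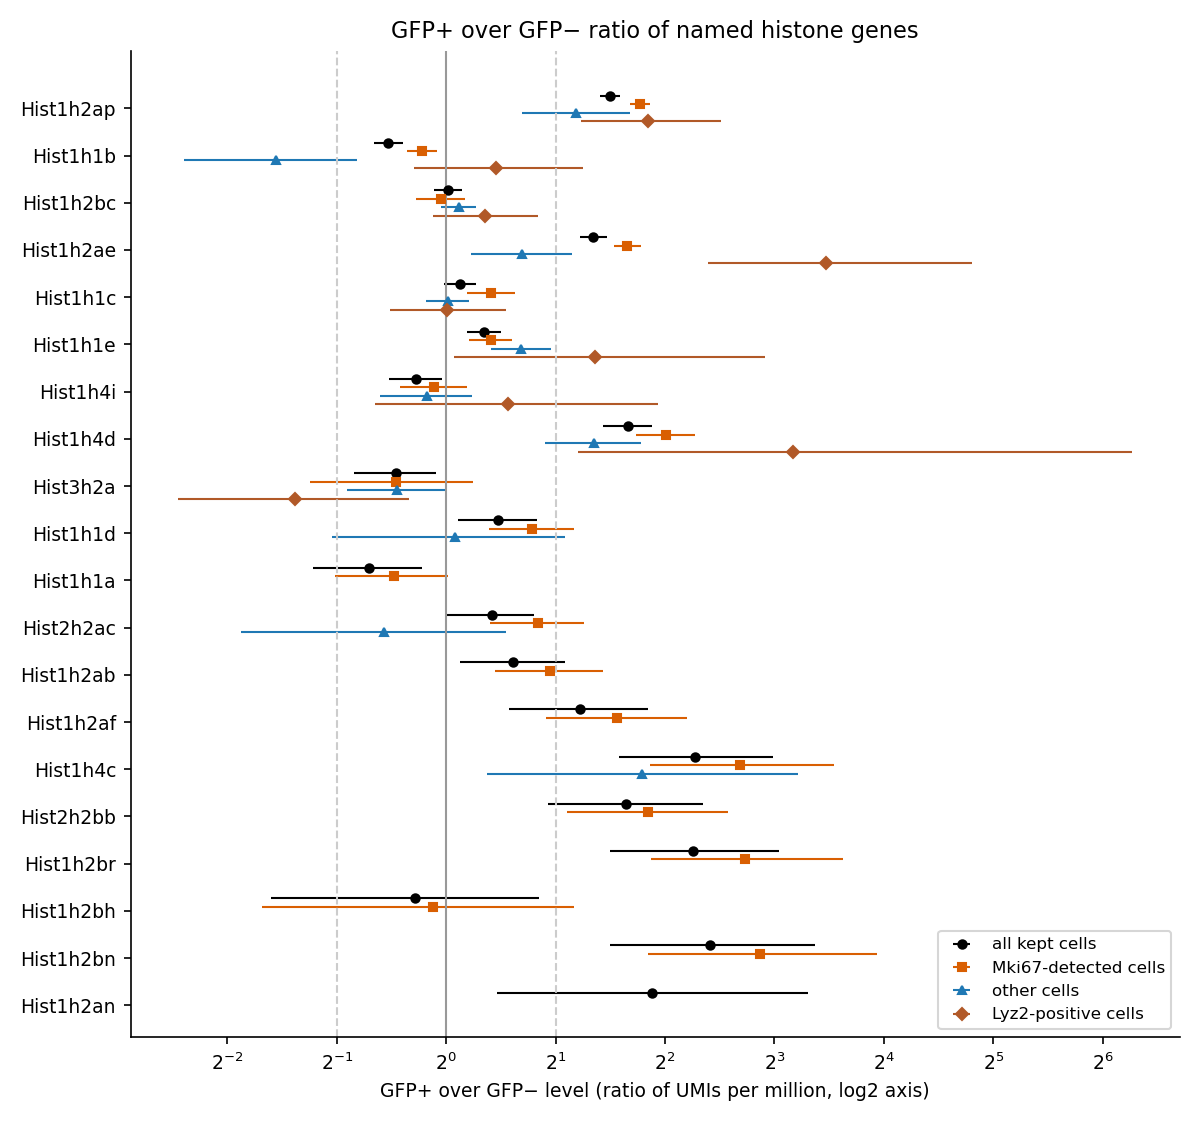
GFP+ over GFP- ratio of the level of the named members (log2 axis, bars are exact 95% counting intervals) in all kept, Mki67-detected, other and Lyz2-positive cells, for members with at least 20 UMIs over both libraries in those cells. Hist1h2ap, Hist1h2ae and Hist1h4d lie right of 1 in all 4 sets of cells, while Hist1h1b lies left of 1 except in Lyz2-positive cells.

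Few cells carried the GFP+ sum. The 10 cells with the most histone UMIs, all of them Mki67-detected, held 41.3% of the GFP+ and 8.20% of the GFP- histone UMIs, from 604 and 2683 cells. For an equal share of cells, the 5% with the most histone UMIs (30 GFP+ and 134 GFP- cells), it was 73.3% in the GFP+ and 55.2% in the GFP- library. The highest cell held 560 UMIs in the GFP+ and 199 UMIs in the GFP- library. The median Mki67-detected cell held 9.5 histone UMIs in the GFP+ and 8 in the GFP- library, which per 10000 UMIs of the cell is 2.61 in GFP+ and 3.96 in GFP- cells. The 90th percentile was 48.0 per 10000 in GFP+ and 23.2 per 10000 in GFP- cells. The median cell was therefore lower and the upper tail higher in the GFP+ library, and 36.4% of GFP+ and 33.8% of GFP- Mki67-detected cells held at least 20 histone UMIs.

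Summed over the Mki67-detected cells, S phase list UMIs were 0.229% of all UMIs in GFP+ and 0.230% in GFP- cells, but the median cell had 0.103% in the GFP+ and 0.149% in the GFP- library. G2 and M phase list UMIs were 0.398% in GFP+ and 0.517% in GFP- cells, with median cells at 0.197% and 0.370%. Cells were therefore also compared within 4 bins of the S phase share, cut on both libraries together, an alternative added after the data were seen. From the lowest to the highest bin the ratio of the summed level was 1.36 (1.17 to 1.58), 1.99 (1.78 to 2.23), 2.55 (2.40 to 2.71) and 1.96 (1.87 to 2.05), from 32, 18, 16 and 22 GFP+ cells and 120, 134, 136 and 131 GFP- cells. Hist1h2ap was at 2.21 (0.683 to 6.98) in the lowest bin and higher in GFP+ cells in the upper 3, at 11.7 (8.51 to 16.2), 4.0 (3.57 to 4.48) and 3.23 (2.97 to 3.52). Hist1h1b was at 0.920 (0.214 to 3.1) in the lowest bin and at 2.08 (1.38 to 3.09), 1.10 (0.917 to 1.31) and 0.771 (0.684 to 0.867) in the upper 3, so its direction was not the same in all bins.

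Lyz2-positive cells, present in both sorts, also had a higher summed level in the GFP+ library. They were set at 10 or more UMIs of Lyz2, a gene of macrophages and neutrophils: 71 GFP+ cells, 13 of them Mki67-detected, and 51 GFP- cells, 6 of them Mki67-detected. Their macrophage markers summed to 44001 CPM in GFP+ and 33872 CPM in GFP- cells, with 0 of 11 at 0, and their myogenic markers to 98.6 CPM (Myf5, Myod1 and Chodl at 0) and 892 CPM (0 of 10 at 0). The summed histone level was 747 CPM in GFP+ against 391 CPM in GFP- cells (849 and 228 UMIs), a ratio of 1.91 (1.65 to 2.22). It was 2225 CPM against 809 CPM in their Mki67-detected cells, a ratio of 2.75 (2.25 to 3.37), and 261 CPM against 252 CPM in the others, a ratio of 1.04 (0.822 to 1.32). The Mki67-detected sets, 13 and 6 cells, were unlike in their markers. Macrophage markers summed to 36993 CPM in GFP+ against 17349 CPM in GFP- cells (0 of 11 at 0 in both), and Cd74, which these include, was at 8696 CPM against 123 CPM. Myogenic markers summed to 103 CPM (7 of 10 at 0, Pax7 and Myod1 among them) against 1372 CPM (Myog at 0), and mural markers to 7.11 CPM (6 of 8 at 0) against 803 CPM (5 of 8 at 0). The part of these differences in the ratios was not tested. Among members with enough UMIs 4 of 9 were called higher in GFP+ cells (3.80% of features) and 1 lower (10.1%). In the Mki67-detected cells alone 4 of 7 were higher (15.8%) and 0 lower (13.0%), and in the others 0 of 3 were higher (3.70%) and 1 lower (7.85%).

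Hist1h2ap, Hist1h2ae and Hist1h4d, which were higher in GFP+ Mki67-detected cells above, were also higher here. The 4 members with the highest ratios over all kept cells had fewer than 20 UMIs here and could not be called. In Lyz2-positive cells Hist1h2ap had 175 GFP+ and 25 GFP- UMIs, a ratio of 3.59 (2.35 to 5.70), Hist1h2ae 151 and 7 UMIs, a ratio of 11.1 (5.24 to 28.0), and Hist1h4d 35 and 2 UMIs, a ratio of 8.98 (2.31 to 77.1). Most of these UMIs lay in the Mki67-detected cells: 172, 148 and 31 in 13 GFP+ cells and 23, 6 and 2 in 6 GFP- cells. In the other Lyz2-positive cells Hist1h2ap had 3 GFP+ and 2 GFP- UMIs, a ratio of 0.768 (0.0879 to 9.19). Over all Lyz2-positive cells Hist1h2bc was at 1.28 (0.923 to 1.79) and Hist1h1c at 1.0 (0.700 to 1.46). Hist1h1b was at 1.37 (0.816 to 2.38), an interval that includes 1, and Hist3h2a was at 0.385 (0.183 to 0.791). Mki67-detected and other Lyz2-positive cells differed 8.53-fold (7.31 to 9.98) in the GFP+ and 3.22-fold (2.46 to 4.21) in the GFP- library. There 6 of 8 members were called higher in GFP+ cells (6.72% of features) and 0 lower (7.37%), and 2 of 5 in GFP- cells (13.9%) with 0 lower (16.8%). Hist1h1b had 56 against 0 UMIs in GFP+ and 20 against 1 in GFP- cells, and Hist1h2bc had ratios of 0.855 (0.546 to 1.30) and 0.878 (0.420 to 1.70). Without the Lyz2-positive cells the GFP+ over GFP- ratio was 1.49 in all and 1.92 in Mki67-detected cells. In the empty droplets it was 1.32 (1.19 to 1.47) for the sum and 2.17 (1.67 to 2.80) for Hist1h2ap, the 1 member of 9 called higher there (5.36% of features), with 0 lower (6.09%).

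Cells marked by differentiation had slightly lower summed levels. Cells without Mki67 and with at least 10 UMIs of Myog, a factor of muscle differentiation, had 123 CPM in the GFP+ library, against 154 CPM in the cells with Pax7, the satellite cell factor, and without either (61 and 359 cells), a ratio of 0.798 (0.683 to 0.928). In the GFP- library they had 111 CPM against 126 CPM (339 and 1394 cells), a ratio of 0.884 (0.814 to 0.960). Both intervals include 0.907, the median ratio of all features in each library. In the GFP+ library 0 of 10 members were called higher (7.21% of features) and 2 lower (18.7%), Hist3h2a and Hist1h4i, and in the GFP- library 0 of 12 were higher (7.31%) and 1 lower (16.3%), Hist1h2ap. Hist1h1c was at 18.4 CPM in Myog-high against 32.7 CPM in Pax7 cells of the GFP+ library, a ratio of 0.563 (0.373 to 0.825), and at 23.5 CPM against 32.1 CPM in the GFP- library, a ratio of 0.732 (0.611 to 0.873). Hist1h1e went the other way, at 1.17 (0.780 to 1.71) in GFP+ and 1.54 (1.20 to 1.95) in GFP- cells. The Lyz2-positive cells without Mki67 had more Hist1h2bc than the other cells without Mki67, 121 CPM against 38.5 CPM in the GFP+ library (3.13, 2.48 to 3.92) and 93.7 CPM against 41.9 CPM in the GFP- library (2.24, 1.60 to 3.05). In that comparison 4 of 10 members were called higher in the GFP+ library (15.8%) and 0 lower (33.8%), and 7 of 15 were higher in the GFP- library (16.4%) and 1 lower (21.4%). Of the 15, 4 had an interval above 1 and 1 an interval below 1, and the share of all features with such intervals is not given here. The 1 below was Hist1h1e, not called, with 0 UMIs in the Lyz2-positive and 346 in the other cells. Its ratio was at most 0.616 with the floor of 3 counts, and its interval ended at 0.762. The lower call and 3 of the higher calls rested on 1 UMI each in the Lyz2-positive cells.

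The members were also set against what is annotated at their 3′ end. The 43 members with a stem-loop in the transcript used had summed ratios of Mki67-detected over other cells of 14.0 in GFP+ and 7.41 in GFP- cells, and the 24 without one had 6.43 and 6.45. The medians over members with enough UMIs ran the other way, at 11.1 with and 28.0 without a stem-loop in GFP+ cells and at 8.75 and 16.5 in GFP- cells, so this feature gave no single direction. The split at 200 bases of 3′ UTR was chosen after the values were seen, and 54 of the 67 members have any annotated 3′ UTR. The 43 members with 200 bases or fewer had summed ratios of 44.4 in GFP+ and 30.7 in GFP- cells, and the 24 with more had 3.67 and 2.88. The 43 include members with no annotated 3′ UTR, whose length is therefore not known. Hist1h1b is 1 of them, and gave 2712 of the 7554 UMIs of the 43 members in Mki67-detected GFP- cells. A poly(A) signal, AATAAA or ATTAAA in the last 50 bases on the transcribed strand, was annotated in 17 members, against 77.9% of protein-coding genes. For members 1 transcript each was searched, and for the share of all genes any coding transcript counted, so these values are not fully alike. The summed ratios of the 17 members were 8.73 in GFP+ and 4.13 in GFP- cells, against 13.1 and 9.17 for the other 50 members. Hist1h1c and Hist3h2a hold such a signal, and so does Hist1h2ae, whose 3′ UTR of 199 bases lies just inside the limit.

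**Figure D5:**
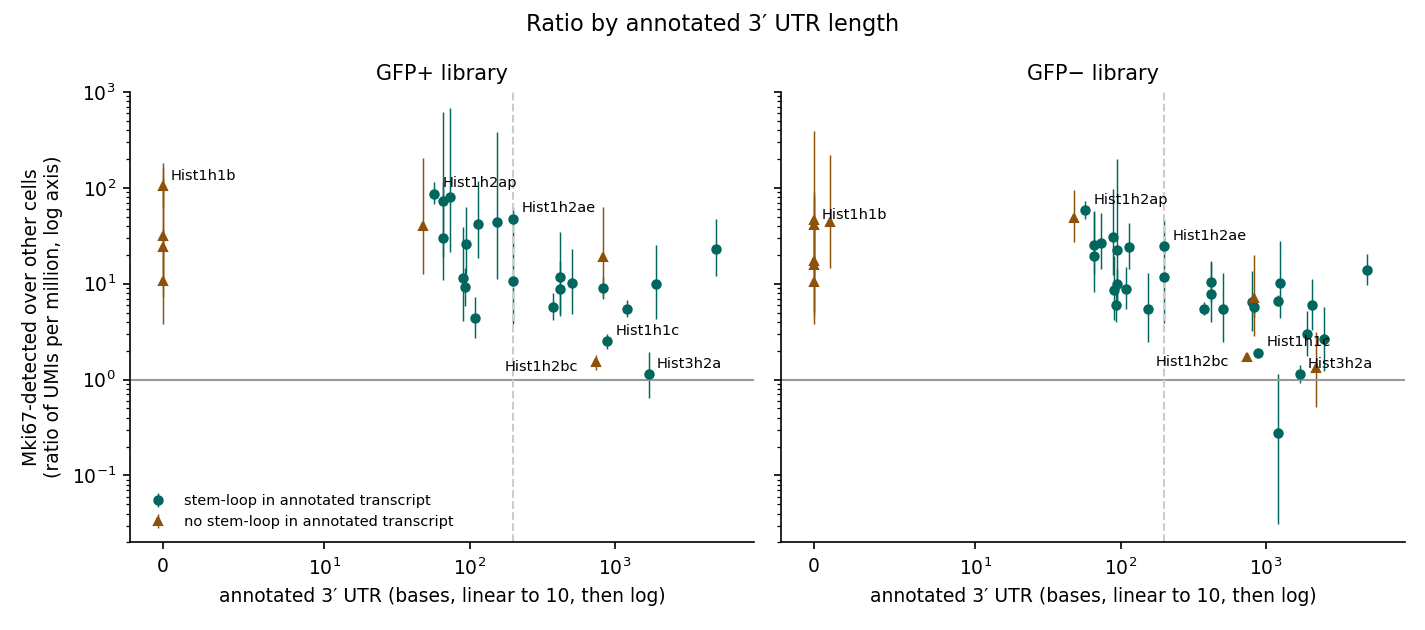
Ratio of Mki67-detected over other cells (log axis, bars are exact 95% counting intervals) against the annotated 3′ UTR length in bases, for members with at least 20 UMIs and at least 1 UMI in the other cells, in the GFP+ (left) and GFP- (right) library. The dashed line is at 200 bases: Hist1h2ap and Hist1h1b lie left of it at ratios of 41.2 to 104, and Hist1h1c, Hist1h2bc and Hist3h2a lie right of it at 1.14 to 2.52. Hist1h1b is drawn at 0 because its annotated transcript holds no 3′ UTR, so its length is not known.

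Near-identical copies limit the values of single members. Of the 67 members 47 share at least one 60-base stretch of their last 300 annotated bases with another gene, and 33 share over 50% of these stretches. Hist1h2ap shares 100% of them and is uncertain as a single gene, since reads could be split among copies, and Hist1h1e shares 100% too and overlaps 2 genes on its own strand. Hist1h1b, Hist1h1c, Hist1h2bc, Hist1h4i and Hist1h4d share 0%. In Mki67-detected cells the GFP+ over GFP- ratio of the summed level was 2.80 for the 33 members with over 50% shared and 1.55 for the other 34. In all, 7 members overlap another gene on the same strand and 21 on the other strand, and their counts are uncertain for that reason as well.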

How the data were processed

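The 2 sorted fractions, each 1 library, were counted with a 3′ kit of version 3.1 chemistry. The deposited matrices hold raw UMI counts per gene and barcode, made by the authors with Cell Ranger (version 4, per the file headers); the submitters' processing notes also name Seurat and the mm10 build. No source used here gives the annotation release or says how reads that match several genes were treated. Levels were computed here as summed UMIs scaled to CPM. Ratios of CPM carry 95% exact conditional (Clopper-Pearson) intervals, levels carry exact Poisson intervals, and shares carry exact binomial intervals. PCR and capture add error that these do not cover, and no test was made between groups, since each is 1 library.

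The members and gene lists were chosen with earlier results of these data known. Members named with values are the 12 with the most UMIs, the 6 with the highest mean ratio of Mki67-detected over other cells, and the 4 highest and 4 lowest of GFP+ over GFP-. Hist1h1t, Hist1h2bb, Hist1h3c, Hist2h2be and Hist2h3c1 were named after their values were seen. Doublets were not removed; leaving out cells above the 98th percentile of UMIs is one of the alternatives. The other alternatives were other mitochondrial and UMI limits, Top2a or 3 Mki67 UMIs for cycling cells, no depth scaling, totals without mitochondrial and ribosomal protein genes, other folds, UMI minimums and thinning depths, 1 Lyz2 UMI, and leaving out Lyz2-positive cells or Hist1h2ap. The S phase share bins were added after the data were seen. The ratios and intervals were tested on simulated Poisson counts, the kind of error that the intervals assume. That check therefore cannot tell how well they cover UMIs clustered in single cells. Python 3.11.15 with numpy 2.4.6, scipy 1.17.1, pandas 2.3.3 and matplotlib 3.10.9 was used.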

Additional observations from a re-analysis of the deposited data

How the results depend on the processing

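Of the recomputed values 64 stayed within 1.5 times (counts) or within their counting interval, 42 moved, and 0 reversed direction. A share of cells in a single group has no direction, so the last count does not cover the shares. With at most 5% mitochondrial UMIs the GFP+ over GFP- ratio of the summed level was 1.31 in all, 1.90 in Mki67-detected and 1.11 in other cells. With at least 3 Mki67 UMIs against 0, Mki67-detected over other cells gave 17.8 in GFP+ and 8.81 in GFP- cells, and GFP+ over GFP- gave 2.45 in Mki67-detected cells; with Top2a in place of Mki67 the first pair was 9.55 and 5.68. As UMIs per cell the Mki67 ratios were 21.3 and 11.8, and the GFP+ over GFP- ratios 1.86 in all, 2.63 in Mki67-detected, 1.46 in other and 2.67 in Lyz2-positive cells. Totals without mitochondrial and ribosomal protein UMIs gave 6.69 for Mki67 in GFP- cells. Without Hist1h2ap the Mki67 ratios were 8.17 and 5.87, and the GFP+ over GFP- ratios 1.34 in all and 1.65 in Mki67-detected cells. Without cells above the 98th percentile of UMIs the Mki67 ratio was 10.8 in GFP+ cells, and the GFP+ over GFP- ratios were 1.45 in all, 1.83 in Mki67-detected and 2.63 in Lyz2-positive cells. Without Lyz2-positive cells the ratio in all cells was 1.49, and with 1 Lyz2 UMI as the limit it was 2.57 in Lyz2-positive cells. In the S phase share bins it was 1.36 in the first and 2.55 in the third. A fold of 1.5, or at least 5 UMIs, called 1 member lower in GFP+ cells, and a fold of 3 called 11 higher. At least 5 UMIs called 51 members higher in GFP+ Mki67-detected cells. At least 100 UMIs called 8 there, 14 in GFP- cells and 6 higher in GFP+ over all cells. A UMI limit changes how many members have enough UMIs, and the share of all features called at these folds and limits is not given here. The share of cells with a histone UMI, thinned to 3000 UMIs, was 56.0% of Mki67-detected and 29.4% of other GFP+ cells and 64.3% and 27.6% of GFP- cells; not thinned it was 92.0%, 68.0%, 91.4% and 63.6%. Beyond what the construction of each alternative shows, the causes were not tested. No paired analysis was possible because each fraction was 1 library, so no replicate could be left out either. Depth limits most members: 22 of 67 had fewer than 20 UMIs over both libraries, and the GFP+ Mki67-detected cells were 88.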
